A study of Mus musculus with 16 samples.

Results

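The 7 genes examined here belong to inhibitory neurotransmission, namely the glycine receptor subunits Glra1, Glra2, Glra3 and Glrb and the transporters Slc6a5, Slc6a9 and Slc32a1. They were taken by gene symbol, as every probe set (a group of short probes that reads 1 transcript) whose single symbol in the platform annotation was one of the listed names. This gave 15 probe sets for the 7 genes, out of 34958 probe sets for 18194 genes with a single symbol and 45101 probe sets in all. The 16 Affymetrix arrays held 2 arrays from each of 8 groups: SINE KO and WT mice, female and male, cerebellum and rest of brain (whole brain without the cerebellum). SINE KO mice were homozygous for a 4-bp deletion in the SINE exon of a brain isoform of Ppargc1a and came from 1 CRISPR founder line, made in C57BL/6J embryos and bred to C57BL/6 mice, in which the transcript is still made. The WT mice were their age-matched littermates, and the labels give no ages. No sample was treated, and brain stem remnants had been removed from the brains by hand.

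Glycine is, with GABA, the main fast inhibitory transmitter of the central nervous system, and it acts mostly in the spinal cord, the brain stem and parts of the cerebellum. A synaptic glycine receptor is a ring of α subunits, which bind glycine, and of the β subunit, which anchors the ring to the scaffold protein gephyrin. The neuronal transporter GlyT2 (Slc6a5) refills glycinergic terminals and GlyT1 (Slc6a9), mostly on glia, clears glycine from the synapse, whereas VGAT (Slc32a1) loads both GABA and glycine into vesicles. In the cerebellum, Golgi cells are the best known neurons that release glycine.

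The deposited table held calls and no signal intensities. Its 5 distinct numbers correspond to levels 2, 1, 0, -1 and -2, and level 2 was read as detected, level 1 as marginal and all lower levels as not detected. This reading is not stated in the sources used here. A call shows whether a transcript was seen and carries no level, so no fold change was computed, and amounts can differ where the calls do not. In a piece of tissue, fewer cells of a type and less RNA per cell cannot be told apart. Between 25517 and 28155 probe sets were detected per array. The tissue labels were checked with marker genes: Barhl1 and Zic2, transcription factors of cerebellar granule cells, each had a probe set with 8 of 8 cerebellum and 0 of 8 rest-of-brain arrays. The forebrain factors Emx1 and Tbr1 each had one with 0 of 8 cerebellum and 8 of 8 rest-of-brain arrays. These 4 genes were picked from the marker lists after their calls were seen. The WT female cerebellum replicate 2 stood apart, with 17 of 24 granule cell marker probe sets detected, against 21 to 23 on the other 7 cerebellum arrays. It also had 14 of 21 forebrain and 19 of 23 thalamus and midbrain marker probe sets, against 7 to 9 and 12 to 15 on the others. The comparisons of the varying probe sets that include this array are given without it as well.

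All 7 genes were detected by at least 1 probe set, and 6 of them (Glra1, Glra2, Glra3, Glrb, Slc6a9 and Slc32a1) by a probe set that was at level 2 on all 16 arrays. Slc6a5 was the exception, with 13 of 16 arrays. Of the 15 probe sets, 8 (53.3%) were detected on every array, 2 (13.3%) on some and 5 (33.3%) on none, beside 48%, 25% and 27% of the 45101 probe sets of the table. The glycine receptor subunits had 5 of 7 probe sets on every array and the transporters 3 of 8. Thus only 2 probe sets, 1 of Glra1 and 1 of Slc6a5, could differ between groups at all.

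**Figure D1:**
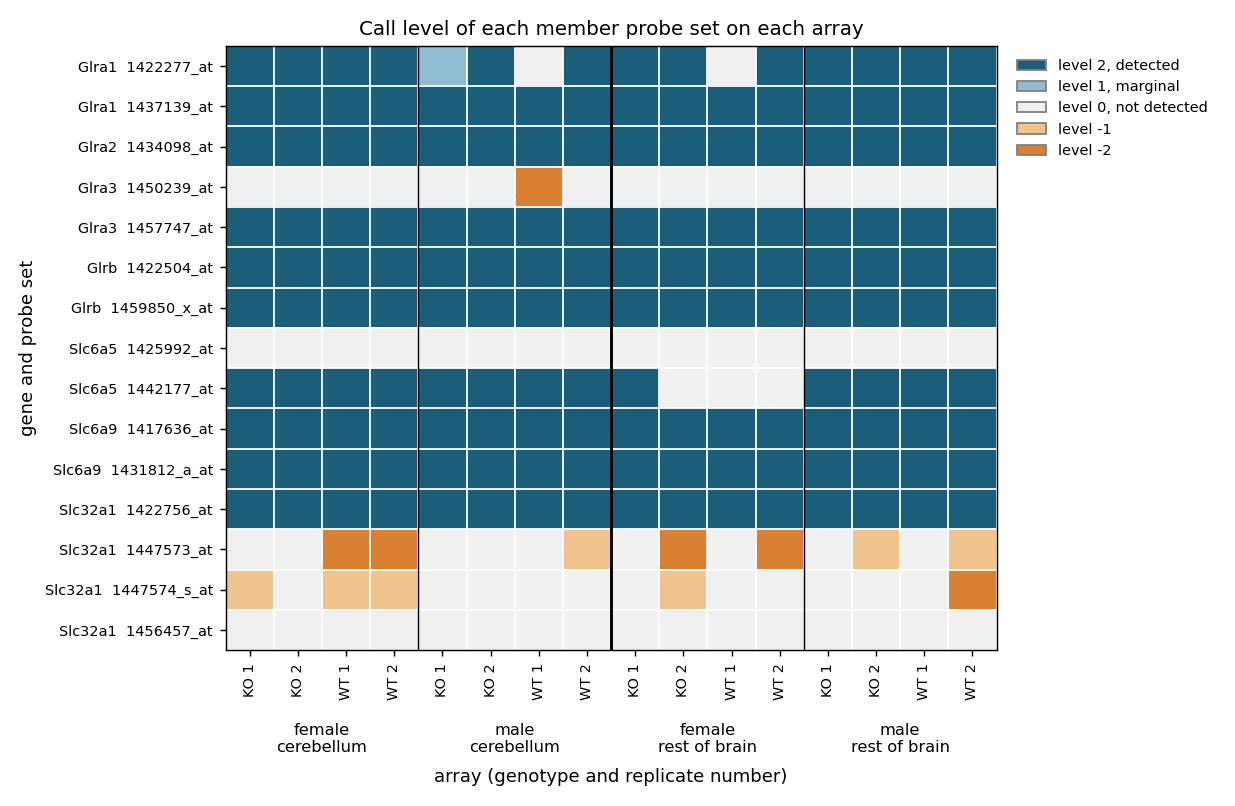
Call level of the 15 probe sets of the 7 genes (rows) on the 16 arrays (columns, labelled by genotype and replicate number and blocked by sex and brain part); colours give the 5 levels. In 10 rows all arrays share 1 level, in 3 rows levels of -1 or -2 stand among undetected arrays, and the rows that mix detected and undetected arrays are 1422277_at of Glra1 and 1442177_at of Slc6a5, each detected on 13 arrays.

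The α subunits were read by 5 probe sets. Glra1 encodes the α1 subunit of adult synaptic receptors, whose loss causes startle disease. Its probe set 1437139_at was at level 2 on all 8 cerebellum and all 8 rest-of-brain arrays. The other, 1422277_at, was detected on 6 of 8 cerebellum arrays and on 7 of 8 rest-of-brain arrays. In the cerebellum it was detected on both KO and both WT female arrays, on KO male replicate 2 and on WT male replicate 2, with KO male replicate 1 at level 1 and WT male replicate 1 at level 0. In the rest of brain only WT female replicate 1 was at level 0. The arrays without a call thus included females and males, KO and WT, and cerebellum and rest of brain, and the groups overlapped in every comparison. Glra2, the α2 subunit that predominates in the developing brain, has the single probe set 1434098_at, detected on all 16 arrays. For Glra3, the α3 subunit, 1457747_at was detected on all 16 arrays and 1450239_at on none. Glra4, the remaining α subunit gene, is no member of the set and is mentioned after its calls were seen: its probe set 1451937_at was detected on 0 of 16 arrays.

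Glrb, the β subunit that all synaptic glycine receptors share, was detected by both of its probe sets, 1422504_at and 1459850_x_at, on all 16 arrays. The glial transporter gene Slc6a9 was likewise detected by both probe sets, 1417636_at and 1431812_a_at, on all 16. Slc32a1 had 4 probe sets that went apart: 1422756_at was detected on all 16 arrays, and 1447573_at, 1447574_s_at and 1456457_at on none. Probe sets of 1 gene therefore did not give 1 answer. Among the 6 members with several probe sets, 2 (Glra3 and Slc32a1, 33.3%) had 1 probe set on all arrays and another on none, as had 2159 of the 9012 genes with several probe sets (24%).

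The neuronal glycine transporter gene Slc6a5 was the member whose calls differed most between the brain parts. Its probe set 1442177_at was at level 2 on all 8 cerebellum arrays, 4 of 4 in KO and 4 of 4 in WT. In the rest of brain it was at level 2 on 5 of 8 arrays, namely KO female replicate 1 and all 4 male arrays, and at level 0 on KO female replicate 2 and on both WT female arrays. All arrays without the call were thus female rest-of-brain arrays, of both genotypes, and the brain parts overlapped. The 1 female rest-of-brain array with the call also had the most granule and Purkinje cell markers of that part, as given below. The second probe set, 1425992_at, was at level 0 on all 16 arrays, so the calls of this gene rest on 1 probe set.

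Slc6a5 has 2 annotated start sites on chromosome 7, and the 150 bases before each are shown because its calls differed most between the brain parts among the members. The window of Slc32a1 on chromosome 2, whose product fills vesicles in the same terminals, stands beside them. Sequences are from RefSeq (GRCm38.p6), 5′ to 3′ on the strand of the gene, and capitals mark CG pairs.
Slc6a5, first start site, chr7:49910149-49910298, plus strand: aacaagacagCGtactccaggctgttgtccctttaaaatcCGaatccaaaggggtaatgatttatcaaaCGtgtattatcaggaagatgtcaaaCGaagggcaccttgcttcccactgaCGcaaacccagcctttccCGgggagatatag
Slc6a5, second start site, chr7:49911550-49911699, plus strand: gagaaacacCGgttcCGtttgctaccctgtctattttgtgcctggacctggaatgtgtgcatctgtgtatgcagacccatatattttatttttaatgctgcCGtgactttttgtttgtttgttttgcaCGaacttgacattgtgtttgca
Slc32a1, chr2:158610608-158610757, plus strand: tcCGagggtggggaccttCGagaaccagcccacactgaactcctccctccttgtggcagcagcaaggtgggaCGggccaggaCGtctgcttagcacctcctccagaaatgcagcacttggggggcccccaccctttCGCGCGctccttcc
Over the 250 bases before each start, the Slc6a5 windows had 50.4% and 43.6% G and C with 11 and 7 CG pairs, and the Slc32a1 window 62.4% with 12. The median of 32851 windows of all genes was 52.4% with 6 CG pairs. The letters TATAAA, searched on both strands, were in neither Slc6a5 window nor in that of Slc32a1 and were in 12.4% of all windows. The calls carry no information on which start site was used.

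For the cerebellum against the rest of brain, each of the 45101 probe sets was tested with Fisher's exact test on the number of arrays detected (two-sided, 8 against 8 arrays, Benjamini-Hochberg adjustment over all 45101). None of the 15 probe sets was called at an adjusted p under 0.05, and none had an unadjusted p under 0.05. The test called 0% of all probe sets after adjustment and gave an unadjusted p under 0.05 for 2.76%, so its count of 0 does not show that the brain parts are alike. Slc6a5 1442177_at was detected on 37.5 percentage points more of the cerebellum arrays (8 of 8, against 5 of 8 in the rest of brain; Fisher's exact test, p = 0.2, adjusted p = 1). A probe set seen on 13 arrays cannot reach a p under 0.05 in this design. Glra1 1422277_at was detected on 12.5 percentage points fewer (6 of 8, against 7 of 8; exact p = 1). Without the WT female cerebellum replicate 2, Slc6a5 stood at 7 of 7 against 5 of 8 arrays (exact p = 0.2) and Glra1 at 5 of 7 against 7 of 8 (exact p = 0.569). Without the KO female rest of brain replicate 1, Slc6a5 stood at 8 of 8 against 4 of 7 (exact p = 0.0769) and Glra1 at 6 of 8 against 6 of 7. Neither probe set was detected on every array of one brain part and no array of the other, a pattern shown by 0.31% of all probe sets.

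Split by sex, Slc6a5 1442177_at was detected on 4 of 4 cerebellum and 1 of 4 rest-of-brain arrays in females (Fisher's exact test, p = 0.143) and on 4 of 4 and 4 of 4 arrays in males (exact p = 1). With 4 against 4 arrays the smallest possible p is 0.0286. Split by genotype, the same probe set had 4 of 4 cerebellum and 3 of 4 rest-of-brain arrays in KO mice (exact p = 1) and 4 of 4 and 2 of 4 in WT mice (exact p = 0.429). Glra1 1422277_at had 4 of 4 cerebellum and 3 of 4 rest-of-brain arrays in females (exact p = 1), and 2 of 4 and 4 of 4 in males (exact p = 0.429). Without the WT female cerebellum replicate 2, Slc6a5 stood at 3 of 3 cerebellum and 1 of 4 rest-of-brain arrays in females (exact p = 0.143) and at 3 of 3 and 2 of 4 in WT mice (exact p = 0.429), and Glra1 at 3 of 3 and 3 of 4 in females and 2 of 3 and 3 of 4 in WT mice (exact p = 1 for each). Within the rest of brain, Slc6a5 was detected on 1 of 4 female and 4 of 4 male arrays (exact p = 0.143), and Glra1 on 3 of 4 and 4 of 4 (exact p = 1). Over both brain parts, the 8 female against the 8 male arrays gave 5 of 8 and 8 of 8 for Slc6a5 (exact p = 0.2, adjusted p = 1) and 7 of 8 and 6 of 8 for Glra1 (exact p = 1). Without the WT female cerebellum replicate 2, these were 4 of 7 and 8 of 8 for Slc6a5 (exact p = 0.0769) and 6 of 7 and 6 of 8 for Glra1 (exact p = 1). No member was called between the sexes, and none had an unadjusted p under 0.05, beside 0% and 0.286% of all probe sets. No member could reach such a p over all 16 arrays, so these counts say nothing about the sexes.

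The study asked what the loss of the SINE isoform changes in the cerebellum, and the KO and WT arrays were compared for these genes in the same way. Over all 16 arrays, 0 of 15 probe sets were called between KO and WT, and none had an unadjusted p under 0.05, beside 0% and 0.0843% of all probe sets. With their numbers of detected arrays, none of the 15 could reach such a p, so both counts were fixed in advance and do not answer the question. Slc6a5 1442177_at was detected on 7 of 8 KO and 6 of 8 WT arrays, and Glra1 1422277_at also on 7 of 8 KO and 6 of 8 WT arrays (exact p = 1 for each). Without the WT female cerebellum replicate 2, each stood at 7 of 8 KO and 5 of 7 WT arrays (exact p = 0.569). Within the cerebellum, Glra1 1422277_at had 3 of 4 KO and 3 of 4 WT arrays, and Slc6a5 had 4 of 4 in both genotypes. Without that array, the cerebellum gave 3 of 4 KO and 2 of 3 WT arrays for Glra1 and 4 of 4 and 3 of 3 for Slc6a5 (exact p = 1 for each). There, no member was called and none had an unadjusted p under 0.05, beside 0% and 0.0377% of all probe sets, but again no member could reach such a p. In the rest of brain, Slc6a5 was detected on 3 of 4 KO and 2 of 4 WT arrays (exact p = 1), and Glra1 on 4 of 4 KO and 3 of 4 WT arrays (exact p = 1).

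Within each sex and brain part, 2 KO arrays face 2 WT arrays and the smallest possible p is 0.333, so the calls were only counted. None of the 15 probe sets was seen on both arrays of a genotype while absent from both of the other. Of all probe sets, 1.45% showed that in female and 1.1% in male cerebellum, and 0.94% in female and 1.02% in male rest of brain. At these rates a count of 0 among 15 says little about the 7 genes. In the female rest of brain, Slc6a5 1442177_at was detected on 1 of 2 KO and 0 of 2 WT arrays and Glra1 1422277_at on 2 of 2 KO and 1 of 2 WT arrays.

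Of the 95 probe sets of 5 lists of related genes, 72 (75.8%) were detected on all arrays or on none, beside 75% of all probe sets, so they stood at the level of the table. GABA synthesis, uptake and breakdown, which includes the GABA-producing enzymes Gad1 and Gad2, had 8 of 11 probe sets on all arrays, 0 on some and 3 on none. Scaffold and adhesion genes of inhibitory synapses, with gephyrin (Gphn), had 16 of 21 on all arrays and 3 on some. Chloride transport, which includes the extruder Slc12a5, had 11 of 17 on all arrays and 3 on some. Glycine and serine metabolism and transport had 20 of 36 on all arrays and 13 on some, and the other vesicular transporters had 2 of 10 on all arrays and 4 on some. In none of these lists was a probe set called between the brain parts after adjustment over all 45101 probe sets.

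**Figure D2:**
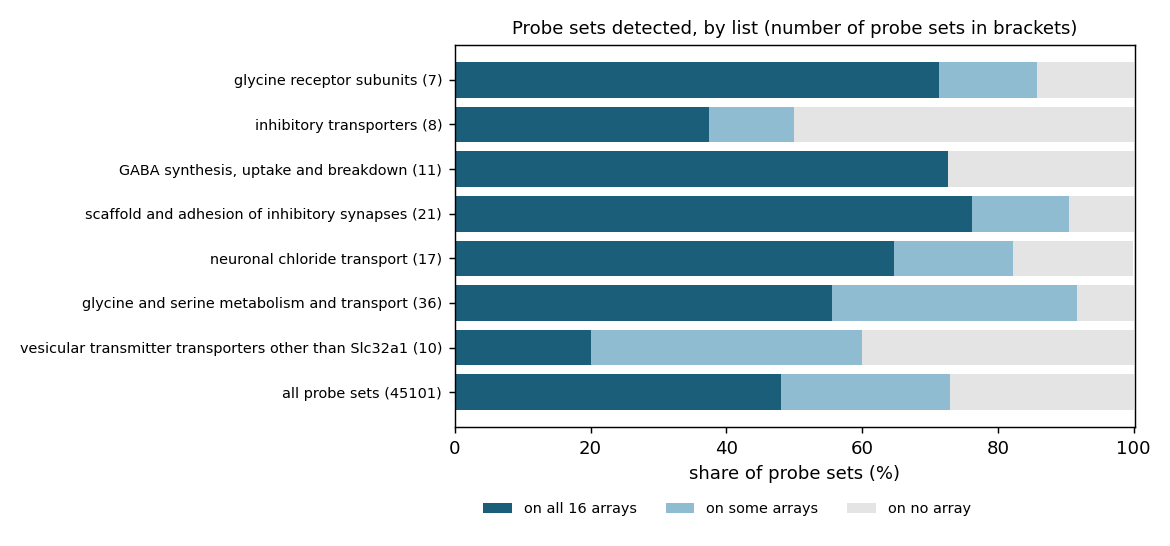
Share of probe sets (horizontal axis, %) detected on all 16 arrays, on some arrays and on no array, for the members, 5 further lists of inhibitory transmission and glycine handling, and the whole table. The glycine receptor subunits had 71.4% on all arrays and the transporters 37.5%, beside 48% of all probe sets.

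When the test was limited to the 3873 probe sets seen on 5 to 11 arrays, the range in which an unadjusted p under 0.05 is possible, it called 662 probe sets between the brain parts. No member falls in that range. Of the 662 called over all probe sets, 447 were detected on fewer cerebellum arrays and 215 on more. Of the 95 probe sets of the related lists, 72 were detected on all arrays or on none and could not be called. In these lists 2 probe sets were called, both detected on fewer cerebellum arrays, the commoner direction. Whether this count differs from the rate of all probe sets was not tested. Nrxn3 1439629_at, a presynaptic adhesion molecule, was detected on 0 of 8 cerebellum and 6 of 8 rest-of-brain arrays. Its other 4 probe sets were detected on all 16 arrays. For Srr 1438550_x_at, which reads serine racemase, the enzyme that makes D-serine, 2 of 8 cerebellum and 8 of 8 rest-of-brain arrays had the call (adjusted p = 0.0409 for each, Fisher's exact test over the 3873). Over all 45101 probe sets the adjusted p was 0.476 for each. The other 5 probe sets of Srr were detected on 7 or 8 of 8 cerebellum and 8 of 8 rest-of-brain arrays.

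Between KO and WT, 3 of the 95 probe sets (3.16%) did not overlap in the female cerebellum, beside 1.45% of all probe sets, and 1 (1.05%) in the male cerebellum, beside 1.1%. In the rest of brain the count was 0 in females and 0 in males. Counts this small, untested, say nothing particular of these lists. In the female cerebellum, Nrxn2 1455499_at, a presynaptic neurexin, and Wnk1 1437888_at, a kinase that regulates chloride transporters, were detected on 2 of 2 KO and 0 of 2 WT arrays, and Slc38a5 1454622_at, a glutamine and glycine transporter, on 0 of 2 KO and 2 of 2 WT arrays. Wnk1 1437888_at was marginal on WT replicate 2, so its groups overlapped once level 1 was read as detected. On that reading the same probe set stood at 0 of 2 KO and 2 of 2 WT arrays in the male cerebellum, the opposite direction. In the male cerebellum, Nlgn2 1460013_at, the adhesion molecule of inhibitory synapses, was detected on 0 of 2 KO and 2 of 2 WT arrays. The other probe sets of Nrxn2 (1), Wnk1 (2) and Nlgn2 (1) were detected on all 16 arrays, so these genes were seen in both genotypes. Hindbrain and brain stem markers were uneven across the same female cerebellum arrays, with 14 and 15 of 30 probe sets detected in KO and 12 and 1 in WT, the 1 being on replicate 2. The male cerebellum arrays had 1 to 2, so it was the other female arrays that stood apart in these markers. Without WT female replicate 2, Nrxn2 and Wnk1 stood at 2 of 2 KO and 0 of 1 WT arrays and Slc38a5 at 0 of 2 and 1 of 1. The arrays kept were those with 12 to 15 of the markers. The part of the marker difference in these calls was not tested.

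The probe sets whose calls were most like those of the 2 varying members were sought among all other genes, by the number of the 16 arrays with the same call. For Slc6a5 1442177_at, 3 probe sets matched on 16 of 16 arrays: Gabra6 1417121_at, the GABA-A receptor α6 subunit of cerebellar granule cells, Cbln3 1455445_at, a secreted synaptic protein of the same cells, and Dao 1420709_s_at, the D-amino acid oxidase, abundant in cerebellar glia. They were the only other probe sets of the table with these 16 calls, and 102 probe sets, Slc6a5 included, had the same 8 and 5 detected arrays in the brain parts. For Glra1 1422277_at, 1 probe set matched on all 16 arrays, that of 4930474N05Rik. Such a match describes calls on 16 shared arrays, of which 13 were detected.

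Marker counts of other cell types were set beside the Slc6a5 calls in the rest of brain. Of 24 granule cell marker probe sets, 13 to 17 were detected on the 5 rest-of-brain arrays with the Slc6a5 call and 11 to 12 on the 3 without it, beside 17 to 23 on the 8 cerebellum arrays. These ranges in the rest of brain did not overlap, but the list holds Gabra6 and Cbln3, which have probe sets with the calls of Slc6a5. Without these genes the remaining 20 probe sets gave 11 to 13, 11 to 12 and 15 to 19, and the ranges in the rest of brain overlapped. Barhl1, Barhl2 and Zic2, which mark granule cells, were detected on no rest-of-brain array. Purkinje cell markers stood at 22 to 27 of 29 on the 5 arrays and 21 to 23 on the 3, and hindbrain and brain stem markers at 3 to 8 and 2 to 3 of 30. Markers of cerebellar Golgi cells and molecular layer interneurons stood at 13 of 14 on each of the 5 arrays and 12 to 13 on the 3, beside 12 to 14 in the cerebellum. In the cerebellum, Slc6a5 was detected on every array, so its calls there have no variation to set beside the markers. Hindbrain markers stood there at 14 and 15 on KO female and 12 and 1 on WT female arrays. On the 4 male arrays they stood at 1 to 2. Glra1 1422277_at was detected on 4 of 4 female and 2 of 4 male cerebellum arrays. The part of these markers in the Slc6a5 and Glra1 calls was not tested.

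**Figure D3:**
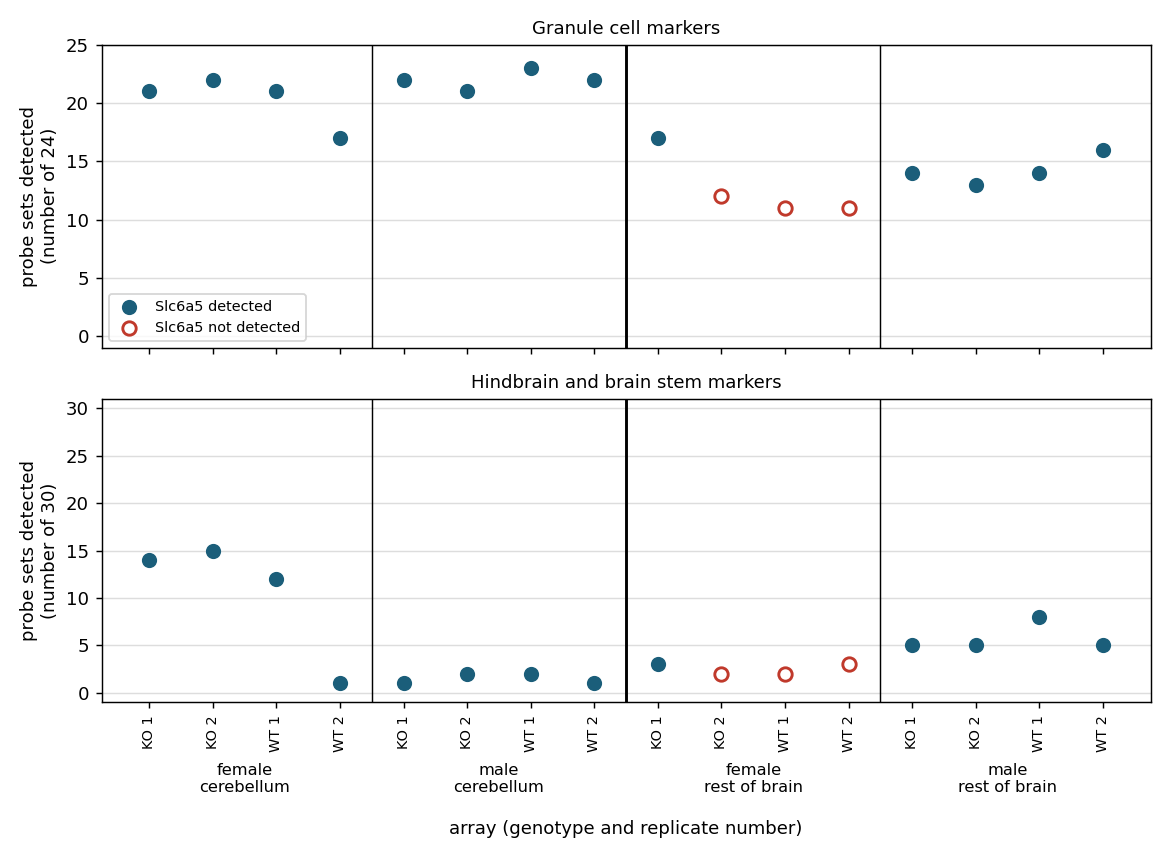
Number of granule cell marker probe sets (top, of 24) and of hindbrain and brain stem marker probe sets (bottom, of 30) detected on each of the 16 arrays; filled points are arrays with the Slc6a5 1442177_at call and open points arrays without it. The 3 open points, all female rest of brain, are the lowest in the upper panel at 11 to 12. In the lower panel they lie at 2 to 3, beside 3 to 8 on the 5 other rest-of-brain arrays and 1 to 15 on the cerebellum arrays.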

How the data were processed

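RNA of 16 cerebellum and rest-of-brain samples was hybridised to Affymetrix arrays. The array named in the methods is a human one, but its probe sets here carry mouse annotation. MAS5 is named in the methods and the submitters' processing notes, RMA in the results. In the deposited table, 45101 probe sets take 5 distinct numbers, which the authors do not explain; stored in 4 bytes, these differ in the first byte alone. A value above 5e-38 (level 2) was read as detected. Levels -1 and -2 were read as not detected. They occur on 2672 probe sets, whose values on other arrays are at level 0 in 98.8% and at level 2 in 1.07%. Because arrays give calls, their number limits the precision.

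The labels do not say whether replicates of equal number come from 1 animal, and the p-values hold only if the arrays are independent. As each brain was split in 2, the 8 arrays of a genotype may come from as few as 4 animals, while the tests over both brain parts took all arrays as independent. No 2 arrays were duplicates: the closest pair differed in 3967 probe sets. Each probe set was tested with Fisher's exact test, two-sided, adjusted by Benjamini-Hochberg over all probe sets, and the script was tested on simulated calls. The 7 genes, the lists and the tests were chosen with earlier results of these data known. Every member was named. Other list genes were named when called or without overlap, Fat2 excepted, and like genes when at most 5 shared the best match. Genes of lists used only as markers were not described one by one. Annotation gave 34958 probe sets 1 symbol and 932 several, and 9211 are unnamed here. RefSeq start windows were matched by symbol for 6 of the 7 genes. Alternatives were other levels read as detected, counting by gene, a limited test, a replicate block, single sexes, genotypes and brain parts, and each array left out. Tests ran in scipy 1.17.1 under Python 3.11.15, on tables handled with pandas 2.3.3 and numpy 2.4.6, and figures were drawn with matplotlib 3.10.9.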

Additional observations from a re-analysis of the deposited data

Results flagged for a closer look

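In 3 cases a single array stood against the other 7 of its brain part or genotype, out of 60 such groups of 8 arrays examined; the critical value used lets about 1 in 20 groups through by chance, and for calls any lone array passes it. Glra1 1422277_at was detected on 7 of 8 rest-of-brain arrays, the exception being WT female replicate 1. It was also detected on 7 of 8 KO arrays, the exception being KO male cerebellum replicate 1, where the call was marginal. Slc6a5 1442177_at was detected on 7 of 8 KO arrays, the exception being KO female rest of brain replicate 2.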

How the results depend on the processing

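With level 2 read as detected, no member probe set was detected on 5 to 11 arrays, so none could pass the threshold over all 16 arrays. The 0 members called in each of 94 alternatives for brain part, genotype, genotype within the cerebellum and sex (56 of them leaving out 1 array) therefore say nothing about stability. When levels -1 and -2 were read as detected, Slc32a1 1447573_at (7 arrays) and 1447574_s_at (5 arrays) lay in that range, and 0 members were called. This too says little about stability. With level 2 read as detected, even 8 of 8 against 0 of 8 arrays had an adjusted p of 0.0501 (Fisher's exact test). Pairing by replicate number was not seen in the calls, where the deviations of arrays of equal number correlated between -0.018 and 0.065 across probe sets. That does not show that such arrays come from different animals. With the replicate block, an exact sign test, 0 members were called and 0 had an unadjusted p under 0.05 in any comparison, and Slc6a5 gave p = 0.25 for brain part over 8 pairs. Leaving out 1 array moved its exact p for brain part between 0.0769 and 0.2. The count of members without overlap between KO and WT in the female cerebellum became 1 when levels -1 and -2 were read as detected, from Slc32a1 1447573_at at level -2 on both WT arrays. In the female rest of brain it ranged from 0 to 1 with 1 array left out, the 1 being Slc6a5 1442177_at without KO replicate 2 and Glra1 1422277_at without WT replicate 2, each detected in KO alone among fewer arrays. With level 1 read as detected, Glra1 1422277_at was detected on 14 arrays.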

Other observations

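Levels -1 and -2 were more frequent in the members than in the table. They made up 2.92% and 2.5% of the 240 member values, against 0.267% and 1.189% of all values. Of these 13 values, 12 belong to 2 probe sets of Slc32a1 that were detected on no array: 1447573_at had 7, on 2 KO and 5 WT arrays, and 1447574_s_at had 5, on 2 KO and 3 WT arrays. The remaining value was that of Glra3 1450239_at on WT male cerebellum replicate 1. What these levels stand for is not given in the sources used here.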
